A study of Mus musculus with 64 samples.

Results

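The genes described here encode the proteins of the cytosolic ribosome, measured over a day in hearts of wild type mice and of mice lacking BMAL1 in cardiomyocytes. They were taken as every probe whose platform symbol starts with Rpl or Rps and a number, or is Rplp0, Rplp1, Rplp2 or Rpsa, with S6 kinase genes, Rps19bp genes and pseudogenes left out. The rule found 83 probes on the array. Of these, 67 probes of 57 genes were detected (detection p under 0.01) on 4 or more arrays, out of 12101 such probes among the 25697 on the array. They comprise 24 probes for proteins of the small subunit, 35 for the large subunit, 2 for the stalk and 6 for paralog forms. The other 16 probes were not tested. They include every probe of Rpl14, Rpl17, Rpl39l, Rpl6, Rplp2, Rps23, Rps23rg1 and Rpsa, so that nothing is said here of the acidic stalk protein Rplp2 or of Rpsa.

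Whole hearts of male CBK mice, which carry a cardiomyocyte-specific deletion of BMAL1 on the C57Bl/6J background, and of wild type littermates were hybridized to Illumina MouseRef-8 v2 bead arrays. Animals were kept in 12 h of light and 12 h of dark with chow and water freely available. Hearts were taken every 3 h at 8 times, counted from lights on as zeitgeber time (ZT), and each genotype gave 4 arrays at each time, 64 arrays in 16 groups. The labels name no promoter for the recombinase. They also do not state that the arrays of a group came from separate mice, and the p-values then reflect only how these samples spread, which may be partly technical. In whole tissue, fewer cells of a type and less RNA per cell cannot be told apart.

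Each ribosome joins a small subunit, which decodes the messenger RNA, to a large subunit, which forms the peptide bond. Its proteins are made in near equal numbers, and their messenger RNAs begin with a run of pyrimidines at the 5′ end, the TOP motif, through which their translation follows the mTORC1 pathway. Several ribosomal proteins have a paralog that can take their place, and in striated muscle RPL3L replaces RPL3.

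Arrays held 9237 to 10605 detected probes, and the 24 h mean was fitted with limma as the level of a 24 h cosine curve in each genotype. The targeted gene Arntl, which encodes BMAL1, had an amplitude of 1.60 on the log2 scale in wild type and 0.59 in knockout, with an adjusted p of 2.2e-09 for the difference of rhythm. Its 24 h mean differed by 0.07 ± 0.08 (log2, SE, limma adjusted p = 0.528). At ZT0 Arntl lay between 7.72 and 8.34 on the log2 scale in the 4 wild type arrays and between 6.92 and 7.44 in the 4 knockout arrays, and at ZT15 between 4.99 and 5.47 against 6.11 to 6.80. Neither the labels nor the files place its probe relative to the deleted part. The 6 arrays with sample numbers 1 to 22 (5 knockout, 1 wild type) stood apart from the other 58, as described further on. The main counts of members, the paralog balances and some single members are given with and without these arrays. The cell marker lists, the other translation lists, the mitochondrial ribosomal proteins and the remaining members are given with all arrays only. For those, the part of the 6 arrays in the differences was not tested. The 6 arrays were singled out after the values were seen.

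The start sites of the genes whose 24 h mean differed with the same sign at all 8 times are shown first, as 30 bases around the RefSeq start (assembly GRCm38.p6), 5′ to 3′ on the strand of the gene. Capitals mark a C and the pyrimidines that follow it, at least 5 bases in all, where the C lies within 5 bases of the annotated start. For the genes with 2 annotated starts the first along the gene's strand is shown, except for Rpl34, where it is the one with the longer run.
Rps27 (small subunit, chr3:90213634-90213663, minus strand): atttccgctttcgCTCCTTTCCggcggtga
Rps21 (small subunit, chr2:180257364-180257393, plus strand): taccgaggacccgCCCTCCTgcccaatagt
Rpl34 (large subunit, chr3:130730323-130730352, minus strand): ccttccttttCCTCTTCCggggacggtgct
Rpl12 (large subunit, chr2:32961697-32961726, plus strand): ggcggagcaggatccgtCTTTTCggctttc
Rpl5 (large subunit, chr5:107900513-107900542, plus strand): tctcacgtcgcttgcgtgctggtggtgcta
Rps27l (paralog of Rps27, chr9:66946071-66946100, plus strand): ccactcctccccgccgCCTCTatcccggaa
Rpl3l (paralog of Rpl3, chr17:24727811-24727840, plus strand): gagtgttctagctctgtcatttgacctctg
Rpl7l1 (paralog of Rpl7, chr17:46782642-46782671, minus strand): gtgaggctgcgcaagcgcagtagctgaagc
Rplp0 (stalk, chr5:115559452-115559481, plus strand): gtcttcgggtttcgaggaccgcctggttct
The runs of Rps27 and Rps21 open just before the annotated start and that of Rps27l opens just after it, while none meets the rule in the muscle form Rpl3l or in Rpl5, Rpl7l1 and Rplp0. Of the 57 member genes, 49 had a promoter in the RefSeq table. Such a run lay at the start of 23 of them (46.9%), against 21.2% of the 27025 genes in that table. The E-box CACGTG, the motif that BMAL1 and CLOCK bind, was found in the 250 bases before to 50 bases after the start (both strands, since it is its own complement) of 5 of the 49 (10.2%), against 8.09% of all genes. A match describes letters only, and its absence says only that they are not in this window.

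The daily mean of most cytosolic ribosomal protein messages did not pass the test for a difference between genotypes, and the differences that passed were small, with 1 exception, Rpl3l. Of the 67 probes, 7 were higher in knockout, 16 were lower and 44 were not called (limma, Benjamini-Hochberg over 12101 probes, threshold 0.05). Over all tested probes 17% were higher and 17.4% were lower. Called in either direction were 23 of the 67 members and 34.4% of all probes, so the members' share lies near the background. Their median difference was -0.04 on the log2 scale, against -0.01 over all probes, and 41 of 67 lay below 0. Without the 6 arrays that stood apart, 8 members were higher and 15 lower, and 19 of the 23 calls were shared with the full set. With those arrays given a term of their own, 6 were higher and 17 lower. The split by direction depended on the scaling. Median scaling moved the median of all probes to 0.06 and gave 13 higher and 1 lower, and median scaling over the tested probes alone gave 6 higher and 5 lower. The 7 probes called in the same direction under all 5 scalings were those of Rpl3, Rps27l and Rplp0, the brighter probe of Rpl7l1 and the dimmest probes of Rpl23 and Rpl31, all higher, and that of Rpl3l, lower.

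**Figure D1:**
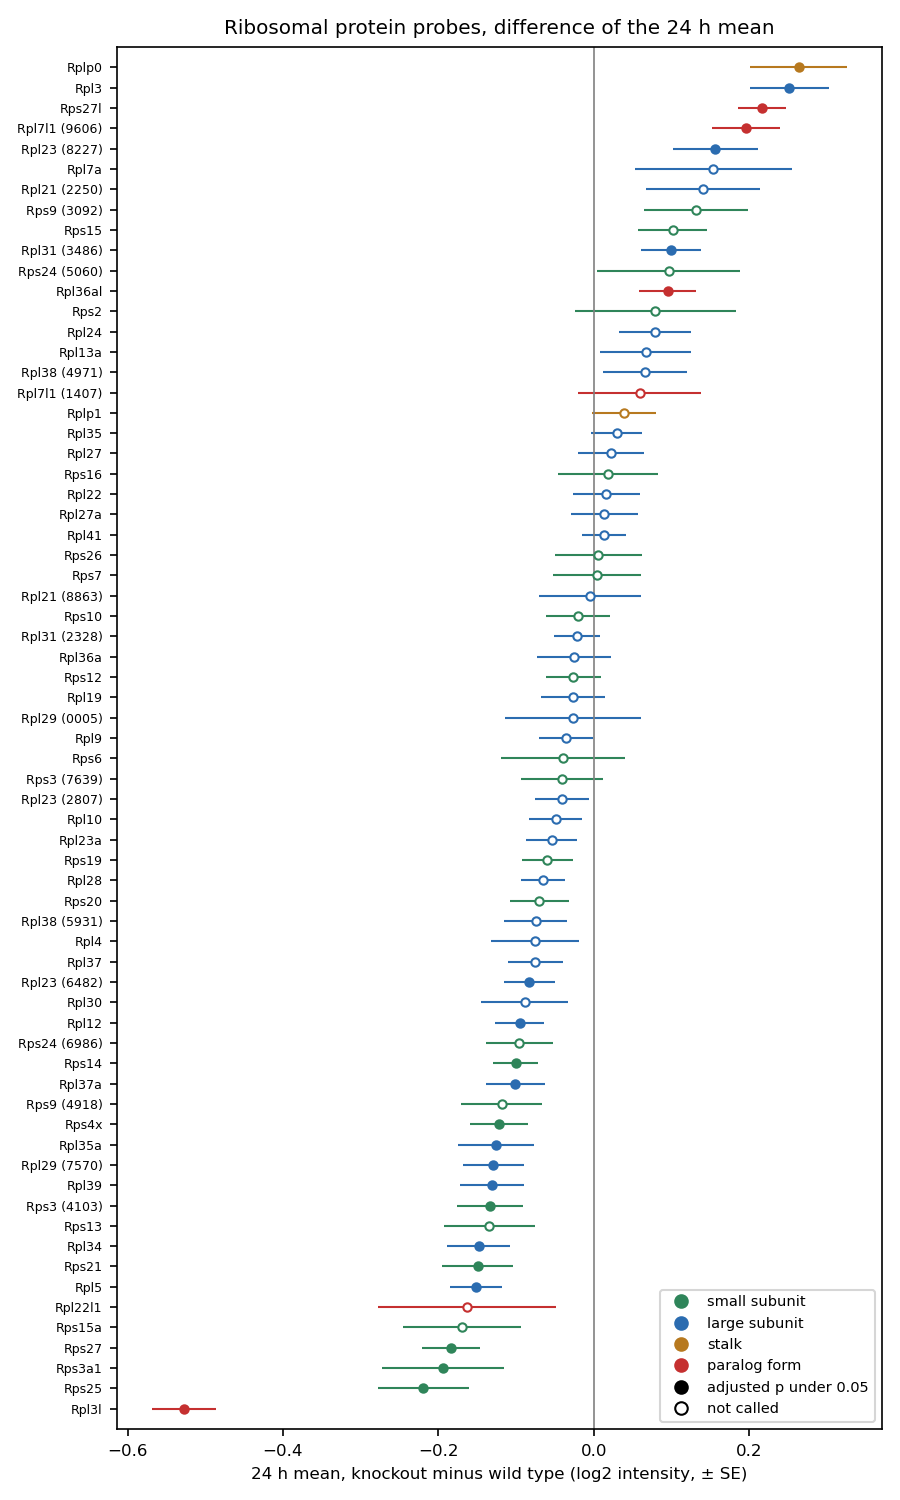
Difference of the 24 h mean, knockout minus wild type, for the 67 ribosomal protein probes (log2 intensity, points with SE from limma, coloured by subunit, filled where the adjusted p was under 0.05). The 4 digits after a symbol are the end of the probe number where a gene has more than 1 probe. Most points lie within 0.2 of 0, and Rpl3l lies apart at -0.53.

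The paralog forms held the largest fall and 3 of the 7 rises. Of their 6 probes 3 were higher and 1 lower, beside 17% higher and 17.4% lower of all tested probes. Rpl3l encodes the form of RPL3 found in heart and skeletal muscle. Its log2 intensity ran from 13.56 over a median of 13.90 to 14.11 in the 32 wild type arrays, and from 12.84 over 13.34 to 13.92 in the 32 knockout arrays. Of the 32 knockout arrays, 27 lay below the lowest wild type array, and the lowest wild type array was the only wild type array among those numbered 1 to 22. The 24 h mean fell by 0.53 ± 0.04 (SE, limma adjusted p = 2.05e-17), which is 1.44-fold lower, and without the 6 arrays it fell by 0.50 (adjusted p = 1.91e-17). Rpl3l was the only member called at all 8 times, with falls from 0.34 ± 0.11 at ZT9 (adjusted p = 0.0498) to 0.64 ± 0.11 at ZT0 (adjusted p = 9.9e-05, n = 4 arrays per group, limma). Without the 6 arrays it was called at 7 of the 8 times, ZT6 being the exception. Under median scaling only 1 lower call remained over all members and times, so the calls at single times depended on the scaling.

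Rpl3, the ubiquitous form, went the other way. In wild type its log2 intensity ran from 12.34 over 12.72 to 13.11 and in knockout from 12.45 over 13.02 to 13.41, so that the ranges overlapped widely while 29 of 32 knockout arrays lay above the wild type median. The 24 h mean rose by 0.25 ± 0.05 (adjusted p = 4.14e-05) with all arrays and by 0.32 ± 0.05 (adjusted p = 8.3e-08) without the 6 arrays. ZT0 was the only time at which it was not higher in knockout. The 2 knockout arrays of ZT0 numbered 6 and 8 read 12.45 and 12.59, and the other 2, numbered 68 and 129, read 13.11 and 13.16.

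The difference between the Rpl3l and Rpl3 log intensities within an array gives the balance of both forms up to a constant, since the brightness of different probes cannot be compared. It ran from 0.69 over 1.16 to 1.55 in wild type and from -0.15 over 0.38 to 0.88 in knockout, and 26 of 32 knockout arrays lay below every wild type array. It fell by 0.78 ± 0.06 (adjusted p = 4.16e-18), a 1.72-fold lower ratio of Rpl3l to Rpl3, and by 0.83 ± 0.05 without the 6 arrays. The fall was called at 8 of 8 times, from 0.57 ± 0.17 at ZT0 to 0.97 ± 0.17 at ZT18 (log2, SE). The balance showed no rhythm past the threshold in wild type (adjusted p = 0.878) or in knockout (adjusted p = 0.669). Rpl3l is also a skeletal muscle gene. Of the 5 tested skeletal muscle marker probes, 3 were called lower and 1 higher. Only Myl1 (lower by 0.81, log2) and Acta1 (higher by 0.78) were detected on all arrays. Pvalb was detected on 5 wild type and 0 knockout arrays and Atp2a1 on 9 and 1, so both passed the detection filter only through wild type, and the fifth, Mylpf, was detected on 20 and 13. The summed intensity of that list ran from 3828 over 6689 to 11152 in wild type and from 2361 over 8813 to 20062 in knockout. Of 9 cardiomyocyte marker probes 3 were lower and 1 was higher, with summed intensities from 136813 over 146592 to 155933 and from 129464 over 141183 to 152382. Over all tested probes 17% were higher and 17.4% lower. Markers of other cells differed between lists. Of 8 smooth muscle and pericyte probes and of 1 lymphocyte probe 0 were called. Of 4 red blood cell probes 1 was lower, and of 3 adipocyte probes 1 was lower. Of endothelial probes 4 of 6 were lower, with summed intensities from 3184 over 3590 to 4110 in wild type and from 2516 over 3227 to 3825 in knockout. Of myeloid probes 5 of 8 were lower, with sums from 7498 over 10774 to 13946 and from 7524 over 10156 to 12864. Of fibroblast probes 3 of 8 were higher, with sums from 13034 over 15826 to 19598 and from 11378 over 16170 to 19531. Of 4 atrial probes 1 was higher, Nppa by 0.67, with sums from 4337 over 11567 to 36790 and from 11013 over 19075 to 46575. Under median scaling 1 of the 6 endothelial and 1 of the 8 myeloid probes were called lower. For cardiomyocyte, red blood cell and adipocyte probes that count was 0. Under the same scaling 3 of the 5 skeletal muscle probes were lower and 1 was higher. The part of these markers in the results for Rpl3l and the other members was not tested.

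**Figure D2:**
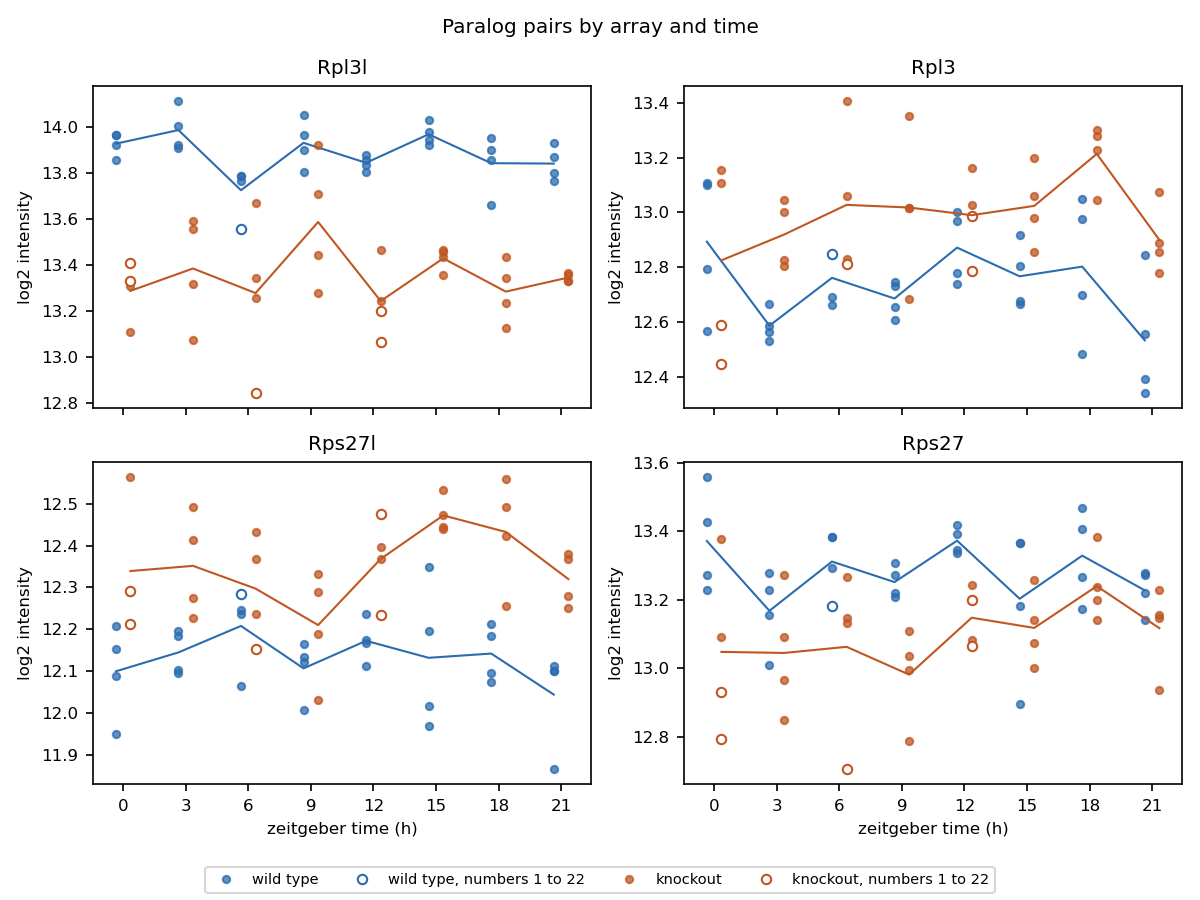
Log2 intensity of Rpl3l, Rpl3, Rps27l and Rps27 on each array against zeitgeber time (h), 4 arrays per genotype and time, with lines through the group means and open symbols for the 6 arrays numbered 1 to 22. Knockout lies lower for Rpl3l and Rps27 and higher for Rps27l at all 8 times, and higher for Rpl3 at every time but ZT0.

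Rps27l and Rps27, which encode nearly identical small subunit proteins, formed the other pair that parted. Rps27l, known in human cells as a target of p53, ran from 11.87 over 12.13 to 12.35 in wild type and from 12.03 over 12.37 to 12.56 in knockout. Of the 32 knockout arrays, 31 lay above the wild type median and 17 above the highest wild type array. Its 24 h mean rose by 0.22 ± 0.03 (adjusted p = 3.19e-08), and by 0.24 without the 6 arrays, with the same sign at 8 of 8 times. Rps27 ran from 12.90 over 13.28 to 13.56 in wild type and from 12.71 over 13.12 to 13.38 in knockout, with 30 of 32 knockout arrays below the wild type median. It fell by 0.18 ± 0.04 (adjusted p = 5.19e-05), and by 0.15 without the 6 arrays, again with the same sign at 8 of 8 times. Under median scaling its fall was 0.05 and did not pass (adjusted p = 0.52). The within-array difference of Rps27l and Rps27, to which a common scaling of an array does not contribute, rose by 0.40 ± 0.04 (adjusted p = 5.55e-14), a 1.32-fold higher ratio, and was called at 6 of 8 times. Without the 6 arrays it rose by 0.39 ± 0.04.

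**Figure D3:**
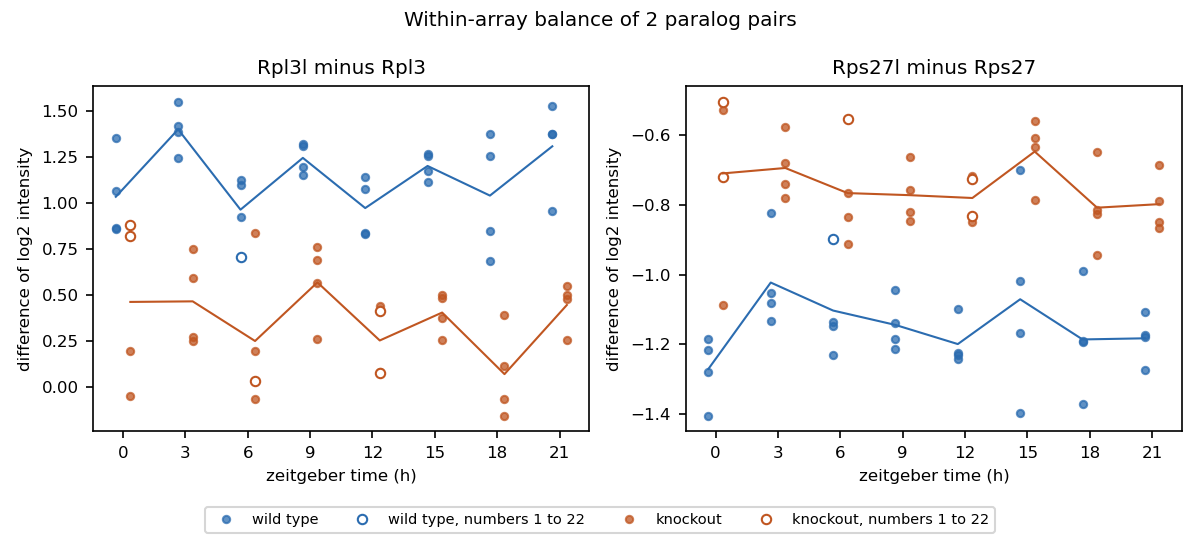
Difference of log2 intensity between both members of a pair on each array, against zeitgeber time (h), with lines through the group means of 4 arrays and open symbols for the arrays numbered 1 to 22. In the left panel 26 of 32 knockout arrays lie below every wild type array, and in the right panel 11 lie above every one.

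The other paralogs changed less. Rpl7l1, a paralog of Rpl7 known in human cells as an assembly factor of the large subunit, was higher by 0.20 ± 0.04 (adjusted p = 0.00021) on its brighter probe, with 29 of 32 knockout arrays above the wild type median. Its dim probe, above background on 14 of the 32 arrays in wild type and 15 in knockout, gave 0.06 ± 0.08 (adjusted p = 0.604). Rpl36al, a paralog of Rpl36a, was higher by 0.10 ± 0.04 (adjusted p = 0.0365), and missed the threshold without the 6 arrays (adjusted p = 0.056). Its balance with Rpl36a differed by 0.12 ± 0.06 (adjusted p = 0.124). Rpl22l1 gave -0.16 ± 0.11 (adjusted p = 0.28), and its balance with Rpl22 gave -0.18 ± 0.10 (adjusted p = 0.179). Without the 6 arrays these were -0.02 ± 0.10 and -0.10 ± 0.10. Of the remaining pairs, Rpl39l was not detected and Rpl7, Rpl10l and the fusion gene Rps27a had no probe under the rule, while Rpl39 was lower by 0.13 ± 0.04 (adjusted p = 0.0103) and Rpl10 gave -0.05 ± 0.03 (adjusted p = 0.282).

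Among small subunit proteins, 7 of 24 probes were lower and 0 higher, with a median difference of -0.06 (limma), beside 17.4% lower and 17% higher of all tested probes, and 17 missed the threshold. Besides Rps27 they were Rps25, Rps3a1, Rps21, Rps3, Rps4x and Rps14. Under median scaling these falls did not pass. Rps25, a protein of the subunit head, ran from 11.01 over 12.00 to 12.37 in wild type and from 11.09 over 11.69 to 12.17 in knockout. Its ranges overlapped, yet 29 of 32 knockout arrays lay below the wild type median, and it fell by 0.22 ± 0.06 (adjusted p = 0.00206). Rps21 fell by 0.15 ± 0.05 (adjusted p = 0.00765) and had the same sign at 8 of 8 times. Rps3a1 and Rps3 lost their calls without the 6 arrays, at -0.09 (adjusted p = 0.234) and -0.08 (adjusted p = 0.0663), and Rps13 entered at -0.21 (adjusted p = 3.71e-05). Rps6, the substrate of the S6 kinases, gave -0.04 ± 0.08 (adjusted p = 0.739), with a range of 9.26 to 11.01 in wild type and 9.33 to 10.92 in knockout. Its spread was wide and both genotypes covered almost the same range.

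Among large subunit proteins, 3 of 35 probes were higher and 8 lower, with a median of -0.03, beside 17% higher and 17.4% lower of all tested probes. The falls held in sign at 8 of 8 times for Rpl5, Rpl34 and Rpl12. Under median scaling the large subunit falls did not pass, and Rpl12 lay at 0.0065. Rpl5, which binds the 5S RNA, fell by 0.15 ± 0.03 (adjusted p = 0.000248), from 13.16 over 13.43 to 13.67 in wild type to 12.93 over 13.29 to 13.49 in knockout, and 28 of 32 knockout arrays lay below the wild type median. Rpl34 fell by 0.15 ± 0.04 (adjusted p = 0.00287) and Rpl12, a protein at the base of the stalk, by 0.10 ± 0.03 (adjusted p = 0.0125). Rpl29, Rpl35a, Rpl37a, Rpl39 and the brightest probe of Rpl23 made up the rest, with falls between 0.08 and 0.13. Without the 6 arrays Rpl35a gave -0.06 (adjusted p = 0.225) and lost its call, and the dimmer Rpl29 probe went from -0.03 to -0.17 (adjusted p = 0.00409) and gained one. The 3 rises were Rpl3 and the dimmest probes of Rpl23 and Rpl31, while the brighter probes gave -0.08 and -0.04 for Rpl23 and -0.02 for Rpl31.

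Of the stalk proteins, which recruit translation factors, Rplp0 was higher and Rplp1 was not called. Rplp0 rose by 0.26 ± 0.06 (adjusted p = 0.000522), from 6.11 over 6.50 to 6.98 in wild type to 6.20 over 6.73 to 7.76 in knockout, on a dim probe. Its other probe was detected on 0 arrays. Rplp1 differed by 0.04 ± 0.04 (adjusted p = 0.496). Rplp0 and Rpl13a are in common use as reference genes in heart, and Rpl32 and Rps18 had no probe under the rule. Rpl13a gave 0.07 ± 0.06 (adjusted p = 0.4) with all arrays but was higher by 0.15 ± 0.05 (adjusted p = 0.00705) without the 6 arrays, in which its level was between 7.81 and 8.34 against 8.08 to 9.04 in the other 58.

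Where a gene had several tested probes, they often went apart. Of 9 such genes, 6 had probes of opposite sign, and in Rpl23 opposite signs both passed: -0.08 ± 0.03 (adjusted p = 0.0437) on a probe with a mean of 14.86 in wild type, and 0.16 ± 0.05 (adjusted p = 0.0203) on one with a mean of 7.45. The third Rpl23 probe gave -0.04 ± 0.03 (adjusted p = 0.382). Both probes of Rps9 missed the threshold at -0.12 ± 0.05 and 0.13 ± 0.07 (adjusted p = 0.0679 and 0.127). Their deviations from the group means had a correlation of -0.61 over the 64 arrays and of -0.28 over the 58. Direction and brightness went together among the members. Of the 17 probes with a mean above 13, 7 were lower and 0 higher, with a median of -0.08, against -0.02 for the 173 tested probes that bright, of which 25.4% were lower and 21.4% higher, while of the 9 members below 8, 3 were higher and 0 lower, with a median of 0.10, against 0.00 for all probes below 8, of which 14.02% were higher and 12.99% lower. The part of probe brightness in these calls was not tested.

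No daily rhythm of a ribosomal protein message passed the test in either genotype. Of the 67 probes, 0 were rhythmic in wild type (limma, adjusted p under 0.05), against 3.55% of all tested probes, and 4 had an unadjusted p under 0.05, which is 5.97% of members against 14.4% of all. In knockout 0 were rhythmic against 1.17%, and 1 had an unadjusted p under 0.05, which is 1.49% of members against 14.0% of all. For the difference of rhythm between genotypes 0 passed against 0.24%, and 2 had an unadjusted p under 0.05. Such a p was found for 553 of all 12101 tested probes. The smallest adjusted p was 0.213 in wild type, for Rpl36al, and 0.175 in knockout, for Rpl28. With time as a factor in place of a cosine the counts were also 0 and 0, against 1.93% and 1.11% of all probes. The member counts stayed at 0 without the 6 arrays. A p that misses the threshold does not show that the messages are constant.

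The fitted amplitudes set the scale of what could have been seen. The median amplitude of the members was 0.05 in wild type and 0.06 in knockout (log2), against 0.09 and 0.09 for all probes. Among the 17 members with a mean above 13 the median amplitude in wild type was 0.03, and over all probes that bright it was 0.04, so that brighter probes of any kind had small fitted amplitudes. The widest curve was that of Rpl22l1, a dim probe, at 0.24 (adjusted p = 0.499). The smallest amplitude that passed among all probes in wild type was 0.11, and 9 members exceeded it without passing. The median SE of a member's amplitude in wild type was 0.04. For Rpl3l the amplitude was 0.01 in wild type and 0.05 in knockout, and for Rps27l it was 0.04 and 0.07.

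**Figure D4:**
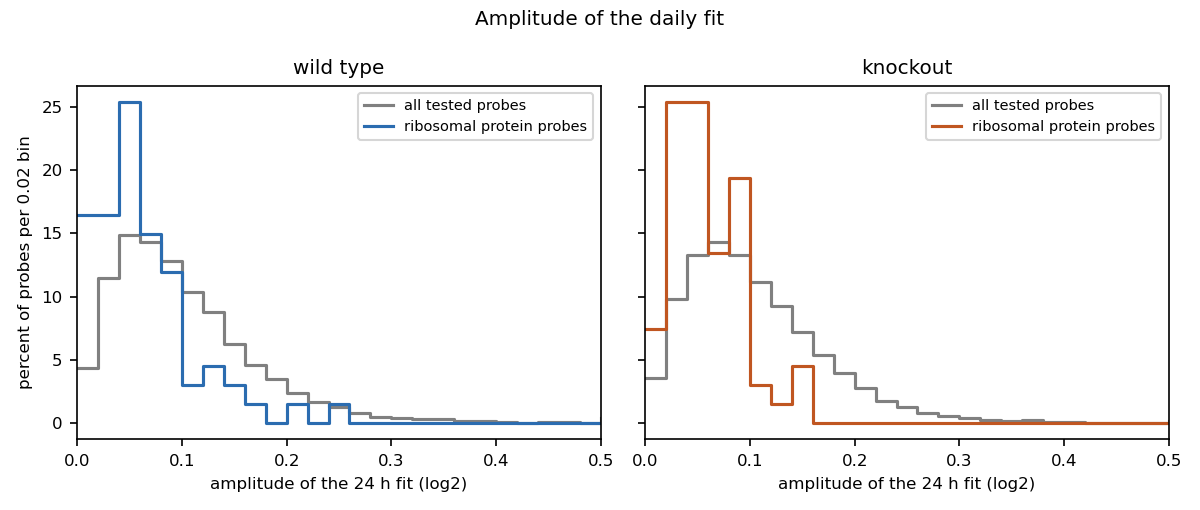
Share of probes (percent per bin of 0.02) by amplitude of the 24 h fit (log2), for the 67 ribosomal protein probes in colour and all 12101 tested probes in grey, in wild type on the left and knockout on the right. Probes with an amplitude of 0.5 or more are not drawn. The members crowd toward small amplitudes, with medians of 0.05 and 0.06 against 0.09.

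At single times few members differed, except at ZT0. The counts of members higher and lower in knockout were 4 and 6 at ZT0 (10.7% of all probes called in either direction), 0 and 1 at ZT3 (3.74%), 0 and 2 at ZT6 (3.74%), 1 and 1 at ZT9 (8.54%), 0 and 2 at ZT12 (6.8%), 1 and 1 at ZT15 (5.19%), 1 and 1 at ZT18 (5.37%) and 0 and 1 at ZT21 (4.33%). The probes called at ZT0 were those of Rpl7a, Rpl7l1 and Rplp1 and a probe of Rps9, higher, and those of Rps27, Rpl3l, Rps14, Rps24 and Rps3a1 and the other probe of Rps9, lower. Without the 6 arrays, which leaves 2 knockout arrays at ZT0, 0 members were higher and 1, Rpl3l, was lower there, against 2.79% of all probes called. Rpl7a, a large subunit protein, is an example. At ZT0 it read 8.90, 9.34, 9.63 and 9.84 in wild type, 9.53 and 9.56 on the knockout arrays numbered 68 and 129, and 10.75 and 11.18 on those numbered 8 and 6. Away from ZT0 the members called without the 6 arrays were Rpl3l at every time but ZT6, Rpl7l1 at ZT9, Rps27l at ZT15, ZT18 and ZT21, and Rpl3 at ZT18.

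The 6 arrays that stood apart are WT ZT6 number 1, KO ZT6 number 2, KO ZT0 numbers 6 and 8, and KO ZT12 numbers 19 and 22. The labels do not say what the numbers stand for. The members that lay above all 58 other arrays on each of the 6 arrays numbered 3 (Rpl7a, Rps16 and Rplp1), and 1 lay below them all (Rps3a1). Of all tested probes 2.58% did not overlap in this way. Against the other arrays of their own groups the 6 differed on average by over 0.5 (log2) for 10 of the 67 members, 7 upward and 3 downward, which is 14.9% of members against 17.9% of all probes. Rps2, a protein near the messenger RNA entry channel, showed the largest shift, 1.18. It read 13.49 to 13.68 on the 6 arrays, 11.88 to 12.80 on the 26 numbered 30 to 154, and 12.21 to 13.56 on the 32 numbered 156 to 209. Rpl29 (dimmer probe), Rpl7a, Rps16, Rps9 (dimmer probe), Rps6 and Rps13 shifted upward by 1.10, 1.09, 0.69, 0.64, 0.64 and 0.60, and Rpl22l1, Rps3a1 and Rpl13a fell by 1.10, 0.87 and 0.61. Both genotypes are among the 6 arrays, but 5 of them are knockout, so members that shift there and group differences at ZT0, ZT6 and ZT12 are partly confounded.

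**Figure D5:**
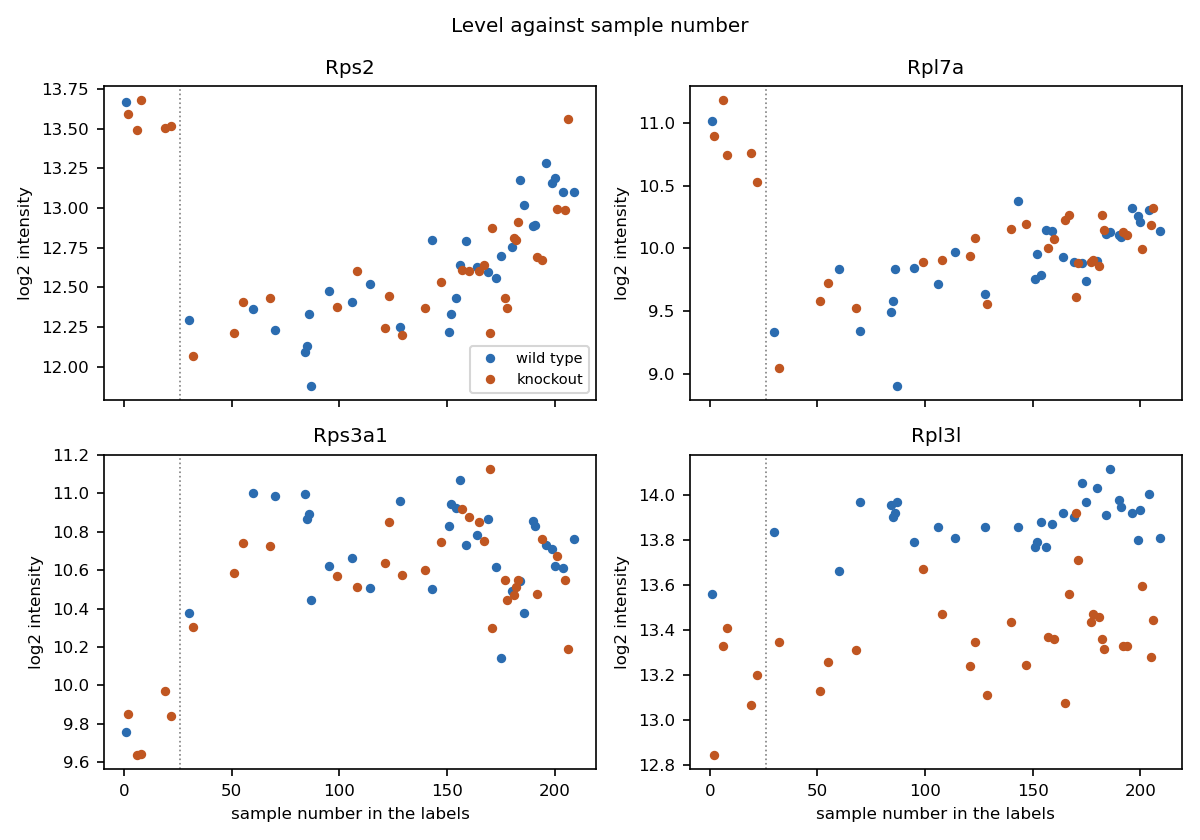
Log2 intensity of Rps2, Rpl7a, Rps3a1 and Rpl3l on each of the 64 arrays against the sample number in the labels, coloured by genotype, with a dotted line between the arrays numbered 1 to 22 and the rest. Rps2 and Rpl7a are high and Rps3a1 low on the 6 arrays at the left, of which 1 is wild type. For Rpl3l 27 of the 32 knockout arrays lie below every wild type array.

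Within groups the ribosomal protein messages varied together to a small degree. The median correlation of deviations from the group mean between 2 members was 0.11 over the 64 arrays and 0.12 over the 58, against 0.00 for all tested probes, and 63.3% of pairs lay above 0. Among the 45 members with a mean above 11 it was 0.18, and among the 826 other probes that bright it was 0.00. All arrays share their normalization, and these values are a description. The members did not form 1 block. Rpl39, Rpl30 and Rps27 followed the rest most closely, with correlations of 0.77, 0.70 and 0.68 to the median of the other members. Rps2 ran against it at -0.44. A smaller set of Rpl7a, Rps6, Rps2, Rps13, Rps16 and the dimmer Rps9 probe varied together, with the highest value for Rpl7a and Rps6, 0.88 over the 64 arrays and 0.84 over the 58. Other pairs of that set had lower values without the 6 arrays, on which these genes are shifted: Rps13 and Rps16 from 0.86 to 0.59, Rpl7a and Rps2 from 0.87 to 0.69, and Rpl7a and Rps13 from 0.81 to 0.54. Rpl24 and Rpl27 had 0.85 and 0.86. A single component carried 35.8% of the within-group variance of the members. For this share and for the correlations to the median of the other members, no value without the 6 arrays is given. As a level of the whole set, the median over members of the deviation from each probe's mean ran from -0.05 over 0.02 to 0.11 (log2) in the 32 wild type arrays and from -0.15 over -0.01 to 0.16 in the 32 knockout arrays. The wild type range lay inside the wider knockout range. The group with the widest spread was knockout ZT9, at -0.02 ± 0.13 (SD, n = 4). Its arrays numbered 170 and 206 held both knockout extremes, 0.16 and -0.15. Over all tested probes their root mean square deviation from the group means was 2.06 and 1.77 times that of the median array.

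Other genes of translation, taken as lists, did not share a single direction with the ribosomal proteins, and their counts are to be read beside the 17% of all tested probes that were higher and the 17.4% that were lower. Of 45 probes of initiation factors 10 were higher and 4 lower (median 0.05). They included the cap-binding protein Eif4e, lower by 0.49 ± 0.07 (adjusted p = 1.09e-07), its homolog Eif4e2, higher by 0.23 ± 0.04, and the helicase Eif4a1, higher by 0.13 ± 0.03. Of 20 probes of elongation and termination factors 1 was higher, Eef1g by 0.10 ± 0.03, and 1 lower, Eef2k, the kinase that inhibits elongation factor EEF2, by 0.43 ± 0.07. Of 23 probes of other TOP transcripts 3 were higher and 1 lower. They included Naca, a ribosome-associated chaperone subunit, at 0.48 ± 0.08 and 0.45 ± 0.07 on its dimmer probes and -0.13 ± 0.04 on its brightest. Of 81 probes of ribosome assembly and RNA polymerase I genes 15 were higher and 11 lower (median -0.01), with the polymerase subunit Polr1e higher by 0.55 ± 0.06 and Rrp12 by 0.37 ± 0.06, and the nucleolar proteins Ncl and Gnl3 lower by 0.35 ± 0.07 and 0.22 ± 0.04. Of 26 probes of mTORC1, S6 kinase and MYC control genes 3 were higher and 9 lower (median -0.10). In wild type 5 of the 26 were rhythmic, against 3.55% of all tested probes. Ddit4, an inhibitor of mTORC1, was higher by 1.40 ± 0.10 (adjusted p = 1.07e-18). Sesn1, another inhibitor of that pathway, was lower by 0.48 ± 0.05, the MYC partner Max by 0.52 ± 0.05, and Maf1, the repressor of RNA polymerase III, by 0.21 ± 0.03. The ribosomal protein Fau, outside the symbol rule, gave -0.02 ± 0.04 (adjusted p = 0.658).

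Under quantile normalization the medians of mitochondrial and cytosolic ribosomal proteins stood on opposite sides of the all-probe median. Of 98 probes 40 were higher and 10 lower (17% and 17.4% of all probes), with a median of 0.06 against -0.04 for the cytosolic members and -0.01 for all probes. Mrps23 and Mrps34 were higher by 0.52 ± 0.04 and 0.53 ± 0.05, Mrpl43 was higher by 0.32 ± 0.04 and 0.51 ± 0.08 on 2 probes, and Mrpl23 was lower by 0.35 ± 0.04. Under median scaling, which raised every list, the mitochondrial median was 0.15, the cytosolic one 0.07 and that of all probes 0.06. Under median scaling over the tested probes they were 0.069, -0.019 and -0.023. With both of these scalings the 2 sets lay on the same side of the all-probe median. No test of the difference between the 2 sets was made.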

How the data were processed

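For every array the authors deposited, per the file headers, the mean bead intensity of each probe with its detection p-value. That intensity shows no background subtraction or normalization, and no source used here names the software. The authors' deposited processed intensity served as an alternative. Background was removed by normexp from the detection p-values (offset 16), then arrays were quantile normalized and log2 transformed with limma 3.58.1 in R 4.3.3. Probes detected (p under 0.01) on 4 or more of the 64 arrays were kept, 12101 in all, and named from the platform annotation. The number of arrays limits the precision.

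A mean, cosine and sine of a 24 h period per genotype, with a term for the time set (ZT 0, 6, 12, 18 against ZT 3, 9, 15, 21), were fitted to all 64 arrays, following the cosinor analysis that the study design names. Single times were tested in a fit with 16 group means. Paralog balances were added as 4 further rows. Benjamini-Hochberg adjustment ran over all tested probes, and within each time for single times. The fits were tested on simulated data. No probes were averaged.

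Members, lists and tests were chosen with earlier results of these data known. Named members are those called with 1 sign at all 8 times (up to 10 each way), stalk proteins, Rps6, paralog pairs, usual reference genes, the extremes of mean level, and genes with opposite calls. In each other list up to 4 genes with the smallest adjusted p-values could be named. Other members are named where a count or a feature called for it, chosen after their values were seen. Promoter sequences are from RefSeq. Alternatives covered background, scaling, filters, time sets, array quality and leaving out each array. The split at sample number 22 was added after seeing the data.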

Additional observations from a re-analysis of the deposited data

Results flagged for a closer look

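Within groups of 4 arrays, 20 single arrays lay far from the other 3 among 400 groups (the 24 named probes and the median level of all members in each of 16 groups), by Dixon's test at a level that chance reaches in about 5% of groups. The number of such arrays is about what chance gives at that level. The values are log2 intensities.

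Large subunit genes gave 6 of these arrays. Rpl5 read 13.23 on KO ZT12 number 22, below 13.34 to 13.36 on the others. Rpl34 read 12.08 on KO ZT3 number 165, above 11.72 to 11.77. Rpl10 read 12.74 on WT ZT6 number 1, below 13.18 to 13.21, and Rpl22 read 9.58 on WT ZT0 number 70, below 9.88 to 9.94. The dim Rpl23 probe read 7.12 on WT ZT12 number 154, below 7.39 to 7.44, and 7.16 on WT ZT21 number 199, below 7.52 to 7.54.

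Small subunit genes gave 4. Rps21 read 13.81 on WT ZT0 number 70, above 13.55 to 13.57, then 12.91 on WT ZT15 number 196, below 13.17 to 13.23, and 13.24 on KO ZT3 number 165, above 13.10 to 13.13. Rps6 read 10.80 on WT ZT9 number 209, above 10.51 to 10.54.

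The stalk gene Rplp1 read 13.62 on WT ZT0 number 87, below 13.87 to 13.90, and 14.28 on KO ZT6 number 2, above 13.89 to 13.95.

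Paralog forms gave the other 8. Rpl3l read 13.56 on WT ZT6 number 1, below 13.77 to 13.79. Rps27l read 11.87 on WT ZT21 number 199, below 12.10 to 12.11, and the brighter Rpl7l1 probe read 7.88 on WT ZT6 number 151, below 8.34 to 8.39. Rpl36al read 12.23 on WT ZT9 number 175, below 12.29 to 12.30, and 12.67 on KO ZT3 number 165, above 12.24 to 12.28. Rpl22l1 read 5.85 on WT ZT15 number 191, below 6.13 to 6.17, then 5.65 on WT ZT21 number 159, below 6.43 to 6.58, and 6.47 on KO ZT21 number 192, above 5.95 to 6.03. Of the 20 values, 4 come from the arrays numbered 1 to 22.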

How the results depend on the processing

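The counts of rhythmic members stayed at 0 in wild type, in knockout and for the difference under every alternative run. For the 24 h mean, median scaling gave 13 members higher and 1 lower, ZT 0, 6, 12 and 18 alone gave 4 and 9, and ZT 3, 9, 15 and 21 alone gave 3 and 2. Median scaling over the tested probes gave 5 lower. Array weights gave 7 higher and 19 lower, against 19.5% higher and 19.5% lower of all tested probes. Without the 3 arrays that spread most, 6 were higher and 23 lower, against 18.9% and 20.0%. Leaving out each array in turn gave 5 to 9 higher and 13 to 22 lower, and 17 of the 23 calls held in all 64 such fits. Of the called named members, Rpl12 changed sign under median scaling (0.0065), and among those not called Rpl10, Rps6, Rpl36a and the middle Rpl23 probe went from below 0 to 0.08, 0.06, 0.09 and 0.04. Rpl3l and Rps27l alone among the called members passed in both time sets taken separately, while all 23 kept their sign in both.

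Summed over the 8 times, 7 calls were higher and 15 lower in the full set. Quantile normalization alone gave 11 higher, median scaling 3 higher and 1 lower, no filter 9 lower, median scaling over the tested probes 5 lower, and leaving out the arrays numbered 1 to 22 gave 7 lower. Leaving out each array in turn gave 3 to 11 higher and 9 to 17 lower. The sum fell to 3 higher without WT ZT0 number 87, KO ZT0 number 6 or KO ZT0 number 8, and rose to 11 without KO ZT0 number 68 or 129. It fell to 9 lower without WT ZT0 number 70 or 86 or KO ZT0 number 6 or 8. Under median scaling the median difference of members was 0.0656 and the difference of the mean score 0.0655, while leaving out each array kept them between -0.04 and -0.03. The cause of these changes was not tested. The time sets taken separately also hold fewer arrays. No paired analysis was possible because each sample number occurs in only 1 group.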
